A study of Bubalus bubalis with 2 samples.

Results

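The 10 genes described here are 4 Toll-like receptors, TLR2, TLR3, TLR4 and TLR6, and 6 proteins that act directly below such receptors, MYD88, TIRAP, IRAK1, IRAK4, TRAF6 and TOLLIP. They are the rows of the deposited table, out of 20905 genes in all, whose gene symbol equals one of these names, and each name had 1 row. The rule uses the symbol only and no measured value. The values come from RNA sequencing of cell-free total RNA of saliva from Murrah water buffalo (Bubalus bubalis), with 1 library labelled estrus, when the female accepts the male, and 1 library labelled diestrus, when a corpus luteum is active. The age, number and treatment of the animals behind each library are not stated in the sources used here. With 1 library per stage there is no spread between animals, so none of the differences below has a replicate check and no test of the stages was made.

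Toll-like receptors are membrane proteins that recognise conserved molecules of microbes and some molecules released by damaged tissue, and they are carried by epithelial cells, fibroblasts and cells of the innate immune system, including those of the oral mucosa. TLR2 and its partner TLR6 recognise bacterial lipoproteins and TLR4 recognises lipopolysaccharide at the cell surface, whereas TLR3 recognises double-stranded RNA in endosomes. All but TLR3 recruit the adaptor MYD88, with TIRAP as a bridging adaptor for TLR2 and TLR4, and MYD88 assembles the kinases IRAK4 and IRAK1, which hand the signal to the ubiquitin ligase TRAF6 and on to NF-kB and the MAP kinases. TOLLIP binds IRAK1 and restrains the pathway. TLR3 signals through another adaptor, TRIF, the product of TICAM1, which TLR4 also uses together with TICAM2.

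Levels are FPKM, fragments scaled to transcript length and library size, so they can be compared between genes. Ratios compare estrus with diestrus on the log2(FPKM + 1) scale, where the added 1 FPKM makes differences between low values look smaller. A gene was counted at a mean of at least 1 FPKM over both libraries and called apart at 2-fold or more. The low values of short loci fell on steps that stand for whole fragments, from which a single fragment per kb of effective length came to 0.232 FPKM at estrus and 1.25 FPKM at diestrus, a depth 5.40 times as great at estrus. A level of 3 fragments per kb corresponded to 0.696 FPKM at estrus and 3.76 FPKM at diestrus. An exact 0 can be a failed estimate, since 27 of 82 rows for cytosolic ribosomal proteins were also at 0 in both libraries, so a gene is only said to be listed at 0.

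Of the 10 genes, 8 were counted, and TLR6 and TIRAP were listed at 0 in both libraries. In the estrus library IRAK1 was higher by at least 2-fold, TLR2 and TLR3 were lower by at least 2-fold, and TLR4, MYD88, IRAK4, TRAF6 and TOLLIP lay between. That is 1 of 8 higher, where 31.3% of all 8269 counted genes were higher, and 2 of 8 lower, where 33.1% of all counted genes were lower. The median log2 ratio of the 8 genes was -0.60, against -0.016 over all counted genes. When the FPKM sums of the libraries were made equal without 4 extreme rows, 1 gene was higher and 4 were lower, while the split of all counted genes became 23.8% higher and 40.4% lower and their median moved to -0.48. In the authors' deposited table all 10 genes carried a p-value of 1 and a test statistic of 0, whereas 1253 other genes had a p-value below 1. For IRAK1 that statistic of 0 stood beside a deposited log2 fold change, diestrus over estrus, of -3.08. Such entries can stand for genes that were not tested, so they are not read as a finding of no difference.

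**Figure D1:**
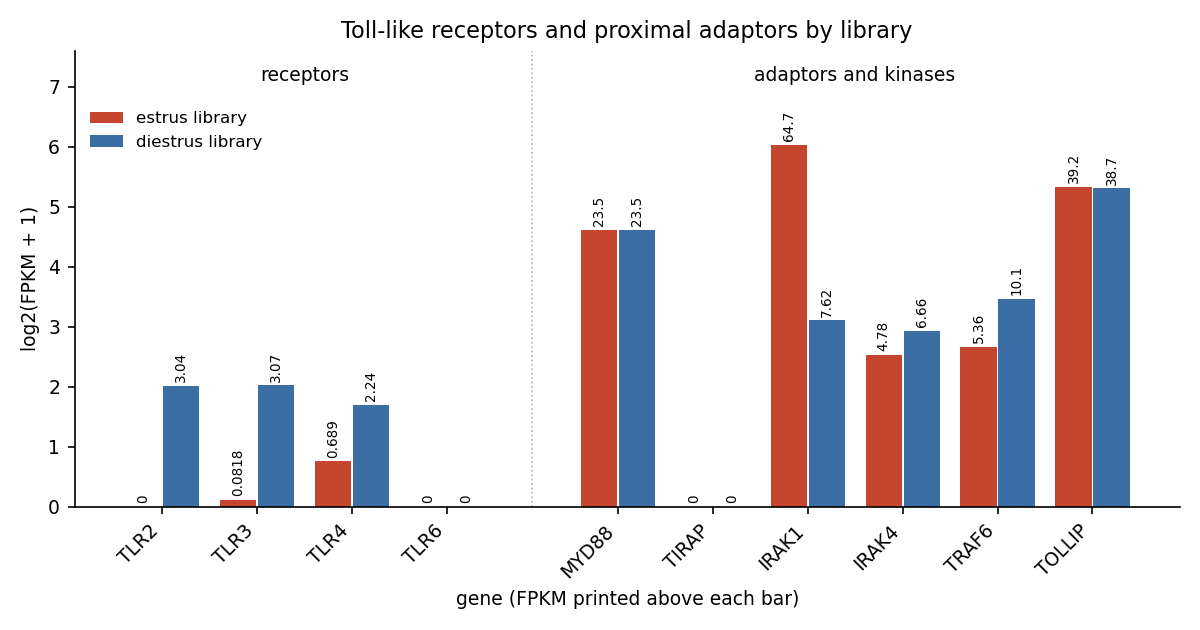
Level of each of the 10 genes, as log2(FPKM + 1), in the estrus library (red, left bar of each pair) and the diestrus library (blue, right bar), with the FPKM printed above each bar and receptors set apart from adaptors and kinases. Each bar is 1 library, so there are no error bars. The receptors stand at or under 3.07 FPKM in either library, MYD88 and TOLLIP have bars of almost equal height, and IRAK1 is the tallest bar of the estrus library.

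The receptors were the lowest of the genes above 0 in both stages. TLR2, the receptor for bacterial lipoproteins on chromosome 17 (3949710 to 3963032), was listed at 0 FPKM at estrus and stood at 3.04 FPKM at diestrus. TLR3, the endosomal sensor of double-stranded RNA on chromosome 27 (15232459 to 15243399), stood at 0.0818 FPKM at estrus and 3.07 FPKM at diestrus. These receptors were thus close to each other at diestrus and at or near 0 at estrus. In cell-free RNA of saliva, the number of cells behind a value and the RNA that reached saliva from each cannot be told apart. For TLR3 the log2 ratio was -1.91. No fold is given for TLR2, because its estrus value is listed at 0. TLR4, the receptor for lipopolysaccharide on chromosome 8 (108828899 to 108839910), stood at 0.689 FPKM at estrus and 2.24 FPKM at diestrus. It ran in the same direction with a log2 ratio of -0.94, just short of 2-fold. With a pseudocount of 0.1 FPKM that ratio was -1.57, and with equal upper quartiles it was -1.09, so TLR4 is called or not according to the setting. TLR6, the partner of TLR2 on chromosome 6 (59687276 to 59706713), was listed at 0 in both libraries.

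The depth behind the receptor values was small. At diestrus TLR2, TLR3 and TLR4 rested on 2.43, 2.45 and 1.79 fragments per kb of effective length. At estrus TLR3 and TLR4 rested on 0.352 and 2.97 fragments per kb. All of these lie under 3 fragments per kb, although a receptor transcript is longer than 1 kb, so the number of fragments per gene can exceed these figures. On a locus as long as that of TLR5, which spans 2577 bp, 3 fragments would be 0.291 FPKM at estrus and 1.57 FPKM at diestrus. Set against that, the diestrus values of TLR2, TLR3 and TLR4 lie above the level and only TLR4 lies above it at estrus.

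The direction of the receptors was common among genes of their level. Between 1 and 2 FPKM in mean, a range chosen after the values were seen, there were 1162 counted genes, and 46.3% of them were at least 2-fold lower at estrus and 19.2% at least 2-fold higher. Their median log2 ratio was -0.81, and 32.4% of them were listed at 0 at estrus against 13.3% at diestrus. The 2 of 3 counted receptors that were lower are to be read beside that share. TLR2, TLR3 and TLR4 were counted through their diestrus values.

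The remaining Toll-like receptors were mostly listed at 0. Of the 9 rows named as Toll-like receptors, 2 were above 0 at estrus and 4 at diestrus, and 5 were listed at 0 in both libraries. Of all 20905 genes, 8424 were above 0 at estrus, 9491 at diestrus, and 10334 were listed at 0 in both. Nothing particular to Toll-like receptors is therefore read from these counts. TLR5, the flagellin receptor, TLR7 and TLR8, the sensors of single-stranded RNA, and TLR10 were listed at 0 in both, as was TLR6. TLR9, the sensor of unmethylated DNA, was listed at 0 at estrus and at 0.0416 FPKM at diestrus, which is below the 0.302 FPKM that 1 fragment would give over its whole locus of 4330 bp. TLR1 was not analysed here. In the buffalo RefSeq annotation (assembly NDDB_SH_1), used for names and neighbours only, TLR1, TLR6 and TLR10 overlap one another. At the deposited loci, on which the FPKM rest, the rows of TLR6 and TLR10 overlapped no other row. These receptors are close paralogs, so their reads can be shared or discarded in mapping.

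The adaptors and kinases were more abundant than the receptors. TOLLIP, the inhibitor of IRAK1, stood at 39.2 FPKM at estrus and 38.7 FPKM at diestrus on chromosome 29 (51291089 to 51345808), with a log2 ratio of 0.018. MYD88, the central adaptor, stood at 23.5 FPKM at estrus and 23.5 FPKM at diestrus on chromosome 22 (11646791 to 11651003), with a log2 ratio of 0.0027. These genes were thus nearly equal in the libraries as deposited, and with equal upper quartiles their ratios were -0.36 and -0.37, close to the shift of all counted genes, whose median was then -0.34. The locus of TOLLIP is also given for B4GALNT4, which was listed at 0 in both libraries, so the reads of the pair may be held under 1 name. TIRAP, the bridging adaptor on chromosome 29 (30013437 to 30018246), was listed at 0 in both.

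IRAK1, the kinase that carries the signal from the MYD88 complex to TRAF6, was the gene that stood apart. It stood at 64.7 FPKM at estrus and 7.62 FPKM at diestrus on chromosome X (40126143 to 40133455), a log2 ratio of 2.93. That is 7.61-fold with 1 FPKM added to each value, and 8.48-fold without it. The level of IRAK1 was the highest of the 10 genes at estrus and the fourth at diestrus. It rested on 279 fragments per kb at estrus and 6.09 at diestrus, above 3 per kb in both. Under the 8 other settings its ratio ran between 2.08 and 3.07, past 2-fold in each. Settings that change only the filter leave a ratio as it was, so only the pseudocounts and scalings could move it. A ratio this high or higher was held by 634 counted genes, 7.67% of them. No other row overlapped its locus.

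IRAK4 and TRAF6 were of middle level, and their ratios were below 0 as deposited. No setting run could turn that sign, because a pseudocount or filter cannot and each scaling lowered the estrus values. IRAK4, the kinase that activates IRAK1, stood at 4.78 FPKM at estrus and 6.66 FPKM at diestrus on chromosome 5 (36877863 to 36905927), with a log2 ratio of -0.40. TRAF6, the ubiquitin ligase at the end of this step, stood at 5.36 FPKM at estrus and 10.1 FPKM at diestrus on chromosome 15 (67768374 to 67789469), with a log2 ratio of -0.80. Neither was called as deposited. TRAF6 passed 2-fold with equal upper quartiles, at -1.12, and with equal sums, at -1.25, and IRAK4 did so under no setting.

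**Figure D2:**
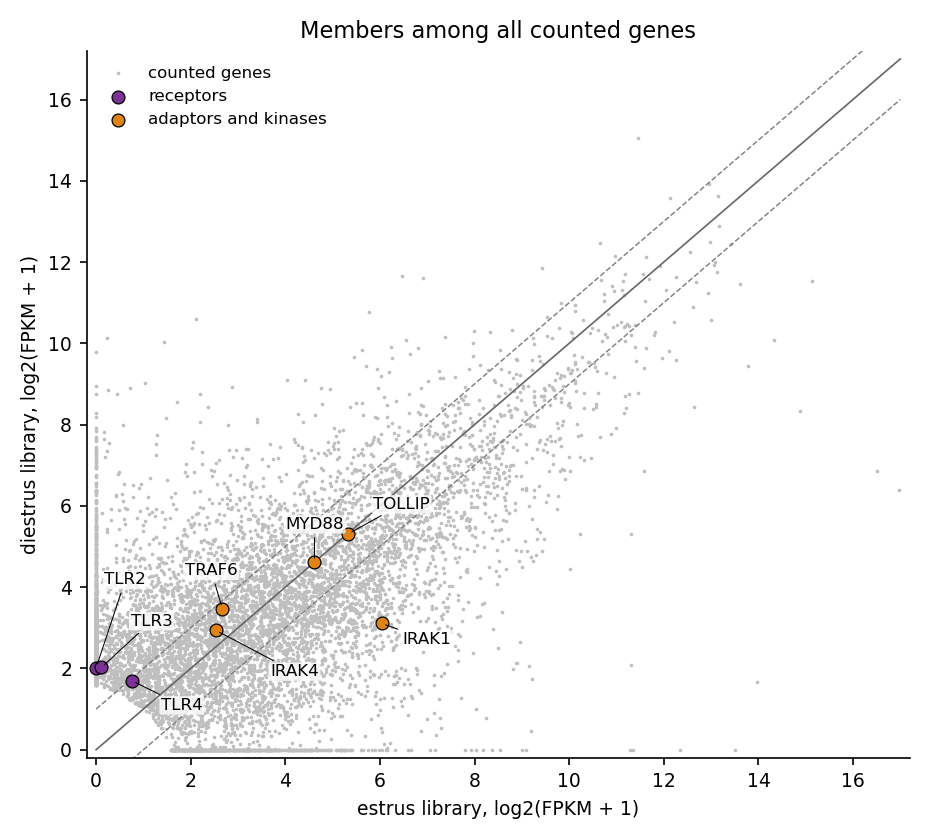
Each grey point is 1 of the 8269 counted genes, with log2(FPKM + 1) in the estrus library on the x axis and in the diestrus library on the y axis, and the 8 counted receptors, adaptors and kinases are marked. The solid line marks equal values and the dashed lines mark 2-fold. MYD88 and TOLLIP lie on the line, IRAK1 lies below it on the estrus side at a log2 ratio of 2.93, and TLR2 and TLR3 lie at the left edge beyond 2-fold.

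The order of levels differed between the libraries mainly by the place of IRAK1. At estrus the order was IRAK1, TOLLIP, MYD88, TRAF6, IRAK4, TLR4 and TLR3, with the other members listed at 0. At diestrus it was TOLLIP, MYD88, TRAF6, IRAK1, IRAK4, TLR3, TLR2 and TLR4. TOLLIP exceeded 79.4% of the genes above 0 at estrus and 84.4% at diestrus, while TLR4 exceeded 13.4% and 30.2% of them in these libraries. Whether neighbours in these orders differ beyond the spread between animals cannot be told with 1 library each, and pairs such as IRAK4 and TRAF6 at estrus or TLR2 and TLR3 at diestrus had almost the same value.

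Ratios of plain FPKM, with nothing added, between genes of the same library do not depend on how the libraries were scaled. The ratio of IRAK1 to IRAK4, the kinases of 1 complex, was 13.5 at estrus and 1.14 at diestrus. The ratio of IRAK1 to its adaptor MYD88 was 2.75 at estrus and 0.325 at diestrus. The ratio of TOLLIP to MYD88, by contrast, was 1.67 at estrus and 1.65 at diestrus. Around a nearly fixed pair of TOLLIP and MYD88, IRAK1 was thus placed above both at estrus and below both at diestrus. TRAF6 stood at 0.228 of the level of MYD88 at estrus and 0.430 at diestrus, and IRAK4 at 0.204 at estrus and 0.284 at diestrus.

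**Figure D3:**
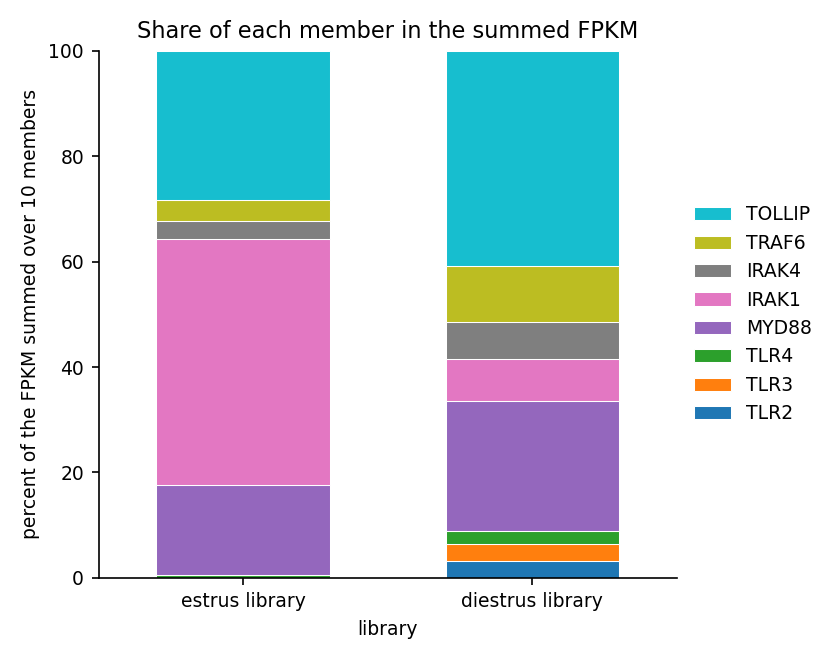
Share of each gene, in percent, in the FPKM summed over the 10 genes, in the estrus library (left bar) and the diestrus library (right bar). TLR6 and TIRAP, listed at 0, have no segment. IRAK1 takes 46.8% of the sum at estrus and 8.03% at diestrus, and the receptors together take 0.557% at estrus and 8.81% at diestrus.

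Receptors were then set against adaptors and kinases. The median log2 ratio was -1.91 for the 3 counted receptors and 0.0027 for the 5 counted adaptors and kinases, a difference of -1.91. TLR2, TLR3 and TLR4 passed the filter on low values through diestrus alone, so a receptor median below 0 follows from the filter, and counted genes with a mean of 1 to 2 FPKM had a median of -0.81. The difference is therefore given as a description only. As deposited, TLR4 at -0.94 lay next below TRAF6 at -0.80, but TLR4 lay above TRAF6 with equal upper quartiles (-1.09 and -1.12), with equal sums (-1.14 and -1.25) and with a pseudocount of 10 FPKM (-0.20 and -0.39). Without TLR2, whose estrus value is listed at 0, the difference was -1.43. It was -0.38 with a pseudocount of 10 FPKM, which lies above every receptor level. The summed FPKM of the 4 receptors was 0.771 at estrus and 8.36 at diestrus. The summed FPKM of the 6 adaptors and kinases was 138 at estrus and 86.5 at diestrus, and without IRAK1 it was 72.9 at estrus and 78.9 at diestrus. No fold between these sums is given, because the receptor sum at estrus holds listed zeros and values under 3 fragments per kb.

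**Figure D4:**
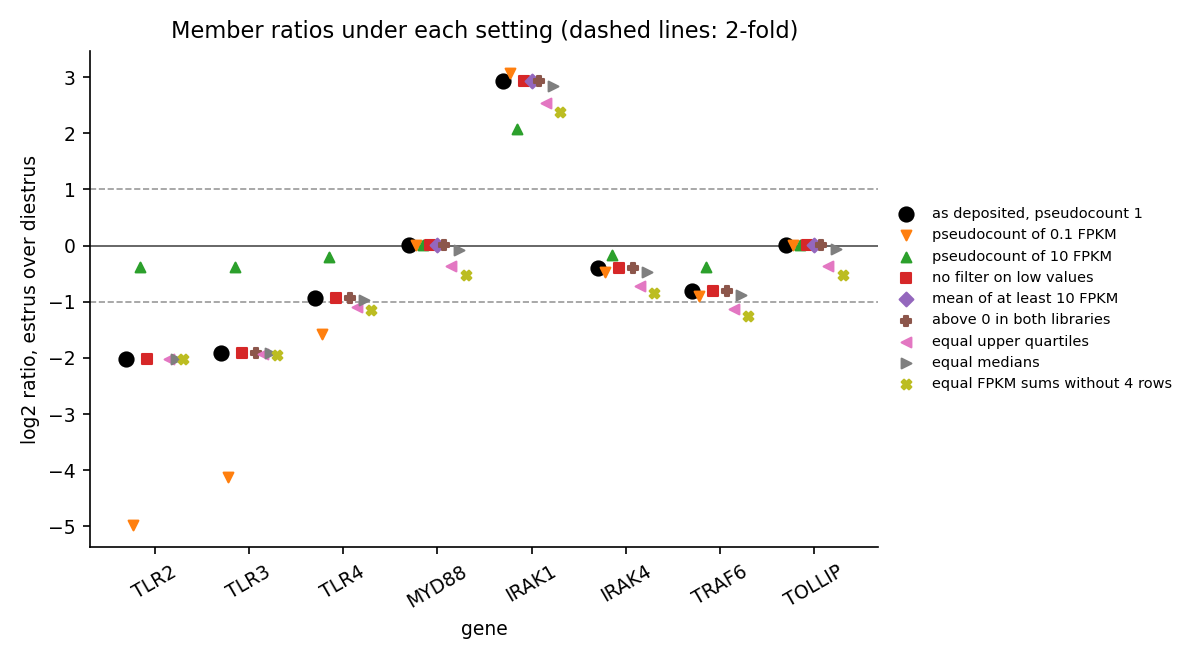
Log2 ratio of estrus over diestrus for the 8 counted genes under each setting, with black circles for the values as deposited and dashed lines at 2-fold. IRAK1 stays between 2.08 and 3.07 under every setting shown. TLR2 and TLR3 move most with the pseudocount, reaching -4.97 and -4.12 at 0.1 FPKM and -0.38 and -0.37 at 10 FPKM.

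The other genes of the pathway were described from lists, 132 genes in all, of which 79 were counted. At estrus 18 of the 79 were at least 2-fold higher, 23 at least 2-fold lower and 38 lay between, with a median log2 ratio of 0.094. That is 22.8% higher and 29.1% lower, beside 31.3% and 33.1% of all counted genes. With equal FPKM sums 10 were higher and 28 lower, which is 12.7% and 35.4%, beside 23.8% and 40.4% of all counted genes. The shares of 31.3% higher and 33.1% lower over all counted genes, and their median of -0.016, are the background of each list count that follows, and with few genes per list nothing particular to a list is read from its count.

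Around the receptors, 6 of 10 co-receptors and chaperones were counted, with 1 higher, 1 lower and 4 between. CD14, which passes lipopolysaccharide to TLR4, was the higher one at 15.0 FPKM at estrus and 4.37 FPKM at diestrus, where TLR4 had a log2 ratio of -0.94. CNPY3, a chaperone that folds Toll-like receptors, was listed at 0 at estrus and stood at 3.16 FPKM at diestrus. LY96, the protein that binds lipopolysaccharide within the TLR4 complex, and LBP, which delivers it, were listed at 0 in both libraries. The general chaperone HSP90B1 stood at 105 FPKM at estrus and 143 FPKM at diestrus, and UNC93B1, which moves TLR3 to endosomes, at 11.4 FPKM at estrus and 13.2 FPKM at diestrus, both within 2-fold. CD36, a scavenger receptor that assists TLR2 and TLR6, stood at 13.8 FPKM at estrus and 11.9 FPKM at diestrus. LRRC59, a membrane protein tied to trafficking of these receptors, stood at 101 FPKM at estrus and 52.5 FPKM at diestrus.

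In the TRIF arm used by TLR3 and TLR4, 2 of 9 counted genes were higher at estrus, 1 was lower and 6 lay between, with a median log2 ratio of 0.13. TICAM1, which encodes TRIF, stood at 16.4 FPKM at estrus and 26.9 FPKM at diestrus, within 2-fold. Its bridging adaptor TICAM2 stood at 13.9 FPKM at estrus and 3.38 FPKM at diestrus, where it rested on 2.69 fragments per kb. IRF3, the interferon regulatory factor of this arm, stood at 15.6 FPKM at estrus and 14.1 FPKM at diestrus. IRF7, a related factor, stood at 25.5 FPKM at estrus and 7.78 FPKM at diestrus, but its locus overlaps those of 4 other genes. AZI2, an adaptor of the kinase TBK1, stood at 9.96 FPKM at estrus and 13.8 FPKM at diestrus, whereas TBKBP1, another such adaptor, was lower at 0.863 FPKM at estrus and 14.6 FPKM at diestrus.

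Below TRAF6, the kinases around TAK1 and IKK were mostly within 2-fold, with 1 of 8 counted genes higher at estrus, 1 lower and 6 between and a median of 0.21. UBE2V1, which with UBE2N builds the ubiquitin chains of TRAF6, stood at 270.0 FPKM at estrus and 139 FPKM at diestrus. UBE2N itself stood at 8.32 FPKM at estrus and 14.5 FPKM at diestrus. ECSIT, a TRAF6-binding protein, stood at 11.6 FPKM at estrus and 21.3 FPKM at diestrus. These genes lay within 2-fold, as TRAF6 did. TAB2, which ties TAK1 to ubiquitin chains, was lower at 4.55 FPKM at estrus and 13.5 FPKM at diestrus. CHUK, an IKK kinase, was higher at 4.14 FPKM at estrus and 0.572 FPKM at diestrus, where it rested on 0.457 fragments per kb.

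The NF-kB subunits and their inhibitors were divided, with 6 of 10 lower at estrus, beside 33.1% of all counted genes, 2 higher, beside 31.3%, and 2 between, around a median log2 ratio of -1.86. RELA, the main activating subunit, was lower at 21.4 FPKM at estrus and 70.7 FPKM at diestrus. BCL3, a nuclear cofactor of NF-kB, was lower at 7.36 FPKM at estrus and 52.8 FPKM at diestrus. RELB, REL, NFKBIZ and NFKBIE were the other lower genes, REL being listed at 0 at estrus against 15.2 FPKM at diestrus. NFKBIZ and NFKBIE stood at 0.447 and 0.963 FPKM at estrus, so they and REL passed the filter through diestrus alone. NFKBIA, the inhibitor that holds NF-kB in the cytoplasm and is itself one of its targets, ran the opposite way at 135 FPKM at estrus and 26.1 FPKM at diestrus. NFKBIB, a related inhibitor, was also higher at 15.3 FPKM at estrus and 4.52 FPKM at diestrus, and NFKB2 lay within 2-fold at 14.3 FPKM at estrus and 11.4 FPKM at diestrus.

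Of the MAP kinases and AP-1 factors, 3 of 13 counted genes were higher at estrus, 3 lower and 7 between, around a median of 0.088. JUN stood at 94.1 FPKM at estrus and 75.3 FPKM at diestrus, while its partner FOS was listed at 0 at estrus and stood at 34.9 FPKM at diestrus. The kinase genes MAP2K3, MAPK3 and MAP2K4 lay within 2-fold, with MAP2K3 at 55.5 FPKM at estrus and 35.9 FPKM at diestrus. MAPK9 and MAPK14, stress-activated kinases, and MAPK12 were the 3 higher genes, and CREB1, a transcription factor that MAP kinase pathways activate, was listed at 0 at estrus and stood at 7.80 FPKM at diestrus.

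Among the counted genes of the pathway lists, the widest gaps were those of SOCS3 and SOCS1, which restrain the pathway. In their list 1 of 11 counted genes was higher at estrus, 4 were lower and 6 lay between, and the median was -0.15. SOCS1, a suppressor of cytokine signalling known to act on TIRAP, stood at 6.37 FPKM at estrus and 488 FPKM at diestrus, a log2 ratio of -6.05. SOCS3, a suppressor from the same family, stood at 3.60 FPKM at estrus and 431 FPKM at diestrus, a log2 ratio of -6.55. At diestrus SOCS1 rested on 390 fragments per kb and SOCS3 on 344, far above 3 per kb. DUSP1, a phosphatase of MAP kinases, was lower at 10.6 FPKM at estrus and 88.3 FPKM at diestrus. IRAK3, a relative of IRAK1 that blocks release of the kinases from MYD88, was lower at 5.28 FPKM at estrus and 13.0 FPKM at diestrus, so the ratio of IRAK1 to IRAK3 was 12.3 at estrus and 0.586 at diestrus. TNIP1, a partner of the deubiquitinase TNFAIP3, stood at 124 FPKM at estrus and 83.5 FPKM at diestrus, within 2-fold, and TNFAIP3 at 1.61 FPKM at estrus and 1.91 FPKM at diestrus. IRAK2, a further member of the kinase family, stood at 0.717 FPKM at estrus and 2.15 FPKM at diestrus, short of 2-fold on the log2(FPKM + 1) scale. It was counted in this list although it is not only an inhibitor, so the list count and median are not those of inhibitors alone.

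**Figure D5:**
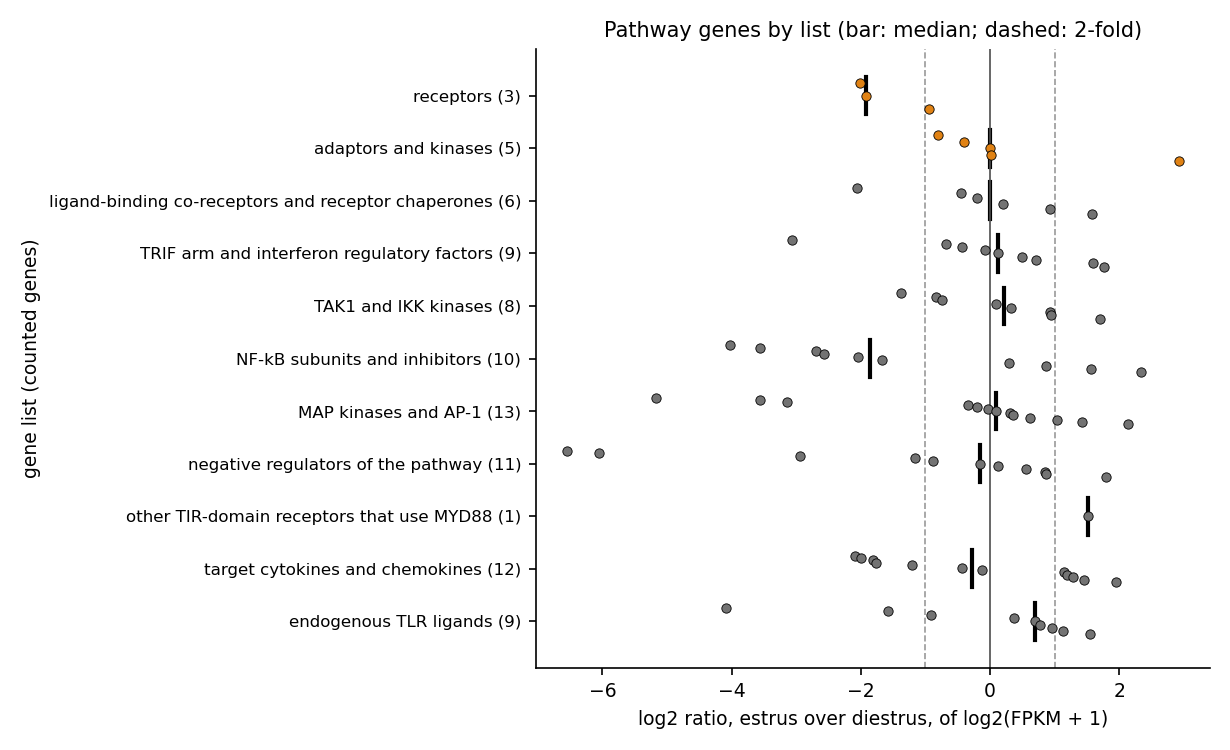
Log2 ratio of estrus over diestrus for each counted gene, with 1 row per list, receptors at the top and the number of counted genes in parentheses. Orange points are the 8 counted receptors, adaptors and kinases, grey points other genes of the pathway, black bars the list medians and dashed lines 2-fold. SOCS3 and SOCS1 are the leftmost points, in the row of negative regulators, and IRAK1 at 2.93 is the rightmost.

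Among target cytokines and chemokines 5 of 12 counted genes were higher at estrus, 5 lower and 2 between, around a median of -0.28. CCL5 stood at 1017 FPKM at estrus and 371 FPKM at diestrus and CCL2, a chemokine that draws monocytes, at 583 FPKM at estrus and 254 FPKM at diestrus. SOD2, a mitochondrial superoxide dismutase induced by NF-kB, was higher at 218 FPKM at estrus and 97.8 FPKM at diestrus, and CXCL5, a neutrophil chemokine, lay within 2-fold at 591 FPKM at estrus and 646 FPKM at diestrus. IL6 and PTGS2 were the other higher genes, while ICAM1, CXCL2, CXCL8, IL1A and NOS2 were lower. TNF was listed at 0 in both libraries. Of the interleukin-1 receptor family, which shares MYD88, IRAK4 and IRAK1 with the Toll-like receptors, 5 of 7 genes were listed at 0 in both. Of all 20905 genes, 10334 were so listed. Only IL18R1 was counted, at 2.11 FPKM at estrus and 0.0895 FPKM at diestrus. It passed the filter through its estrus value alone, and its diestrus value rested on 0.0714 fragments per kb.

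Proteins of the host that Toll-like receptors can recognise were abundant, with 2 of 9 counted genes higher at estrus, 2 lower and 5 between and a median of 0.70. BGN, a matrix proteoglycan that engages TLR2 and TLR4, stood at 2334 FPKM at estrus and 1370 FPKM at diestrus. DCN, a related proteoglycan, stood at 1274 FPKM at estrus and 436 FPKM at diestrus. HSPA1A, a heat shock protein, stood at 1486 FPKM at estrus and 677 FPKM at diestrus, and the matrix protein FN1 at 680.1 FPKM at estrus and 418 FPKM at diestrus. Their levels exceeded those of TLR2 and TLR4 in both libraries, and all but HSPA1A of these 4 are also known as products of fibroblasts.

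Genes with a pattern closest to the leading members were sought among the 6639 other genes with a symbol and a value above 0 in both libraries, by distance on the log2(FPKM + 1) scale over the 2 libraries. Nearest to TOLLIP, the member of highest mean, were CDK16, TUBA4A and COL5A2, at distances of 0.048, 0.052 and 0.054. Nearest to IRAK1, the member of largest ratio, were HDAC1, CSPG4 and RHNO1, at 0.085, 0.17 and 0.17. HDAC1, a histone deacetylase, stood at 66.1 FPKM at estrus and 8.11 FPKM at diestrus. Over only 2 libraries such closeness describes a pair of levels and no more.

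The cells behind the RNA were looked at through marker genes. The markers of all blood cells, PTPRC, CORO1A and LCP1, were listed at 0 in both libraries. Of 12 neutrophil markers 0 were above 0 at estrus and 2 at diestrus, S100A9 and S100A12, and their summed level was 0 FPKM at estrus and 21.2 FPKM at diestrus. Both were counted through diestrus alone, so lower at estrus was their only possible call. Of 13 markers of monocytes and macrophages 3 were above 0 at estrus and 2 at diestrus. Their sums were 20.1 FPKM at estrus, 15.0 of it from CD14, and 5.48 FPKM at diestrus, 4.37 of it from CD14. Of 12 lymphocyte markers 4 were above 0 at estrus and 2 at diestrus, with sums of 124 FPKM at estrus, 115 of it from CD247, and 3.69 FPKM at diestrus. White blood cells, in which TLR2 and TLR4 are best known, thus had most of their markers listed at 0 in either library. Among all 20905 genes, however, only 8424 were above 0 at estrus and 9491 at diestrus. With few markers per list, these counts do not show that white blood cells were missing from the libraries. All 12 fibroblast markers were above 0 in both, with sums of 12508 FPKM at estrus and 14368 FPKM at diestrus. Of 11 markers of squamous epithelium 5 were above 0 at estrus and 8 at diestrus. Of the 8 counted, 6 were lower at estrus, beside 33.1% of all counted genes. EPCAM, CDH1 and DSP among them were listed at 0 at estrus and passed the filter through diestrus alone. Lower was thus their only possible call. However, KRT6A alone gave 30046.5 of a sum of 30187 FPKM at estrus, against a sum of 1370 FPKM at diestrus. Of 6 rows for salivary gland secretions, SLPI was above 0 at estrus at 19.3 FPKM and none was at diestrus, and AQP5, the water channel of the acini, was listed at 0 in both. The part of these markers in the values of the receptors and of IRAK1 was not tested.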

How the data were processed

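Cell-free total RNA of saliva from Murrah buffalo was sequenced, 1 library per stage, with version 2 of the TruSeq RNA kit, per the labels' protocols. The submitters' processing notes name TopHat, Bowtie, Cufflinks and Cuffdiff, without versions or build. FPKM values were made by the authors, per the file headers, as was the deposited log2 fold change, which runs diestrus over estrus (7344 genes above 0 in both libraries matched within 0.001). The deposited p-value, q-value and test statistic, a score, were copied. Whether library totals were rescaled is not stated.

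Table coordinates are printed counting from 1. Starts were read as counting from 0, since 124 of 134 olfactory receptor loci then span a multiple of 3. Some 1830 rows share a locus with another, and 8 of the 10 symbols matched the buffalo RefSeq annotation. Loci are numbered as in cattle, and cross-species mapping and paralogs can move an FPKM.

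Ratios and calls were computed with Python 3.11.15, numpy 2.4.6 and pandas 2.3.3. The worth of a fragment was the step on which most loci of 400 to 3000 bp lay within 0.5% of 1 to 3 fragments, at an effective length 185 bp under the span. It held 40 loci for estrus and 107 for diestrus, against a median of 2 on other steps. If totals were not rescaled, the steps stand for 4309114 fragments at estrus and 798302 at diestrus. Steps, ratios and calls were tested on simulated data.

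Members and lists were chosen with earlier results of these data known. Named genes were the 10 members, the other Toll-like receptors, up to 4 counted genes of highest mean per list, and the 3 genes nearest to the member of highest mean and to that of largest ratio. Genes named beyond this rule (among them CD14, CNPY3, LY96, TICAM2, CHUK, REL, FOS, IRAK2, IRAK3 and TNF) and the salivary gland markers were chosen after their values were seen. TRIAP1 was taken off the negative regulators after its values were seen, because it does not act in this pathway. Alternatives covered the pseudocount, the filter and the scaling.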

Additional observations from a re-analysis of the deposited data

How the results depend on the processing

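The count of 1 member higher in estrus, IRAK1, held under all 8 other settings. The count of 2 members lower was 0 with a pseudocount of 10 FPKM or a mean of at least 10 FPKM, 1 among genes above 0 in both libraries, 3 with a pseudocount of 0.1 FPKM, and 4 with equal upper quartiles or with equal sums without 4 extreme rows (OPRM1, PPARGC1A, TBX15 and CSPG5). A filter at 10 FPKM leaves no receptor, so the difference of receptors from adaptors had no value there. That difference was -0.38 with a pseudocount of 10 FPKM and otherwise ran from -4.13 to -1.42, the last with equal sums. Without IRAK1, an alternative chosen after seeing the data, it was -1.71. Of the other pathway genes, 10 were higher and 14 lower with a pseudocount of 10 FPKM, 10 were higher with equal sums, and 10 were lower at a mean of at least 10 FPKM. The depth ratio was 5.37 from loci of 600 to 2000 bp. Of 58 ratios of single members under these settings, 51 kept their direction or lay short of 2-fold as before, 5 passed 2-fold and 2 fell short of it. Diestrus values under 3.76 FPKM rest on fewer than 3 fragments per kb, which limits the receptors most. No paired analysis was possible because each stage has 1 library.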
